A study of Mus musculus with 51 samples.

Results

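The peaks of acetylated lysine 9 on histone H3 (H3K9ac) were set against the peaks of trimethylated lysine 4 on the same histone (H3K4me3) in nuclei of the same meiotic stage. The members were the 10 peak lists of experiment 1, one for each mark in leptonema, zygonema, early and late pachynema and diplonema, so that each stage gave 1 pair of lists. They were chosen by mark, experiment and stage as the sample titles give them. The 10 lists held 72521 of the 238528 peaks in the 20 lists of the series, 43708 for H3K4me3 and 28813 for H3K9ac. Of the 51 samples of the series, 20 have a peak list.

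All nuclei came from whole testis of adult, wild-type C57Bl/6J males. The testes were fixed with formaldehyde, and nuclei with the DNA content of primary spermatocytes were sorted by flow cytometry on the synaptonemal complex protein SCP3 and on further markers. Leptotene nuclei were sorted with STRA8, in a sort of their own, and the other 4 populations with the testis-specific histone H1t and with SCP1. A sorted population is a mixture in which its named stage prevails, and neighbouring stages can share nuclei. Chromatin for both marks was sheared by sonication. The pairs hold 1 library for each mark and stage, and a second H3K9ac replicate was not analysed here, so that a difference between marks within a stage has no test and its replicate error is unknown. The antibody label of the H3K9ac libraries names H3K4me3 but carries the catalogue number that the methods give for anti-H3K9ac, and the libraries were taken by their titles.

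H3K4me3 is laid down at active and poised promoters by SET1 and MLL type methyltransferases, and in early meiotic prophase also by PRDM9, which binds DNA with its zinc fingers and marks the sites of future DNA double-strand breaks (DSBs), the hotspots. H3K9ac is placed by acetyltransferases such as KAT2A and KAT2B and is bound by bromodomain and YEATS domain proteins. It accompanies transcription at promoters, and PRDM9 itself has no acetyltransferase domain. In leptonema DSBs form, in zygonema the homologous chromosomes synapse, in pachynema recombination is completed and many genes for later spermatogenesis become active, and in diplonema the chromosomes desynapse.

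The sequences of 6 regions show the kinds of site compared here. All were read from the mouse genome GRCm38.p6 (mm10) and are printed 5′ to 3′. The first pair are the central 200 bases of hotspots with both marks at zygonema, on the plus strand: chr10:92680753-92680952, between genes, and chr17:31412191-31412390, in an intron of Pde9a. Capitals mark TGCTGCCA, an 8-base word that was more frequent at H3K4me3 peak centres outside transcription start sites (TSSs) than in their flanks, and only the second of the pair holds it. None of the other hotspot centres that were read held this word or the words picked together with it.
Hotspot on chromosome 10: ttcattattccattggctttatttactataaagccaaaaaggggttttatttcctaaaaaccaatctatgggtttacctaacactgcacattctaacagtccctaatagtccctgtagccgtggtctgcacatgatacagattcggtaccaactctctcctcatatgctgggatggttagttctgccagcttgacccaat
Hotspot on chromosome 17: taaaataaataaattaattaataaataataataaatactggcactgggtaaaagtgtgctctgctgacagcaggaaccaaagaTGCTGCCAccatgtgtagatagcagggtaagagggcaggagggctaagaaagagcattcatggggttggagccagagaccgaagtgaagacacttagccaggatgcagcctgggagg
The third is the centre, chr8:47003171-47003370, of the widest zygonema site outside TSSs with H3K4me3 and without H3K9ac. The centre lies outside exons, and the site overlaps the genes Enpp6 and Gm45600. The centre is shown because it is a tandem repeat: 95.9% of its bases were identical to those 31 bases further on, beside 36.2% over the whole site.
Site with H3K4me3 only: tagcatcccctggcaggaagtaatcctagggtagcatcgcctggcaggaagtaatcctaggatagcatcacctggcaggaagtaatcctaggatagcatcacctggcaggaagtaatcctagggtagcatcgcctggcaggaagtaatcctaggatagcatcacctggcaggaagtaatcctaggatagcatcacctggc
The last 3 are the 200 bases before the RefSeq start of genes that differed in when both marks were called, with CG dinucleotides in capitals. They are Cdc20 (chr4:118437344-118437543, minus strand), called with both marks at all 5 stages, Dmc1 (chr15:79605110-79605309, minus strand), with both at zygonema, and Ccna1 (chr3:55055056-55055255, minus strand), with both at early and late pachynema.
Cdc20: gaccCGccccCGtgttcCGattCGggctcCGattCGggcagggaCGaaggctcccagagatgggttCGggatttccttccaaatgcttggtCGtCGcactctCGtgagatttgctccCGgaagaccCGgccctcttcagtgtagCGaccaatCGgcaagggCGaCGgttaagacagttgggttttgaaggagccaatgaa
Dmc1: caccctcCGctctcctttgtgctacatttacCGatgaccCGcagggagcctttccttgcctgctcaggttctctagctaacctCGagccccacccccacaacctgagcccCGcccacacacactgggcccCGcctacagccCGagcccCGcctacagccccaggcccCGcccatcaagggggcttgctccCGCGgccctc
Ccna1: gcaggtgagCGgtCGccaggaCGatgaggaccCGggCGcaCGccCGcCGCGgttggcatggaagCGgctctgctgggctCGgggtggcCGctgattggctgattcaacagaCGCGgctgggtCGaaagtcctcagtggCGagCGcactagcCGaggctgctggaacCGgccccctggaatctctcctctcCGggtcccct
These 3 stretches held 17, 11 and 20 CG dinucleotides, respectively.

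The length of the H3K9ac lists varied far more than that of the H3K4me3 lists. H3K4me3 had 9528 peaks at leptonema, 15699 at zygonema, 6647 at early pachynema, 5189 in late pachynema and 6645 at diplonema. H3K9ac had 2823, 16003, 7744, 1727 and 516 peaks at the same stages, a 31.0-fold range against 3.03-fold for H3K4me3. The lists give positions only, and the read depth behind a peak is unknown, so a site without a peak may carry the mark below the threshold of the caller. In sorted populations, fewer nuclei with a mark and less of the mark per nucleus cannot be told apart. In the 10 lists, none of 9 Sertoli cell markers, such as Sox9 and Amh, and none of 10 Leydig and interstitial markers, such as Insl3 and Csf1r, had a peak of either mark at any stage. The H3K4me3 lists of experiment 2 had peaks at Sox9 (1391 bp), Wt1 (1026 bp) and Gata4 (3669 bp) at leptonema, at Wt1 (245 bp) at zygonema, at Aard (162 bp) in late pachynema, and at Inha (1221 bp), Aard (309 bp) and Insl3 (288 bp) at diplonema. The part of somatic cells in the results was not tested.

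Nearly every H3K9ac peak lay on an H3K4me3 peak where the H3K9ac list was short, and about 3 in 4 did where it was long. By an overlap of at least 1 bp, 97.2% of the H3K9ac peaks at leptonema overlapped H3K4me3 (exact binomial 95% interval 96.5 to 97.7), 75.3% at zygonema (74.7 to 76.0), 78.4% at early pachynema (77.4 to 79.3), 93.2% in late pachynema (91.9 to 94.3) and 97.7% at diplonema (96.0 to 98.8). In the other direction, H3K9ac overlapped 28.5% of the H3K4me3 peaks at leptonema (27.6 to 29.5), 76.9% at zygonema (76.2 to 77.5), 91.3% at early pachynema (90.6 to 91.9), 30.9% in late pachynema (29.6 to 32.1) and 7.48% at diplonema (6.86 to 8.14). The intervals cover counting error over peaks only. Early pachynema was thus the stage at which the largest share of H3K4me3 peaks also had H3K9ac, in these 5 pairs of lists.

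**Figure D1:**
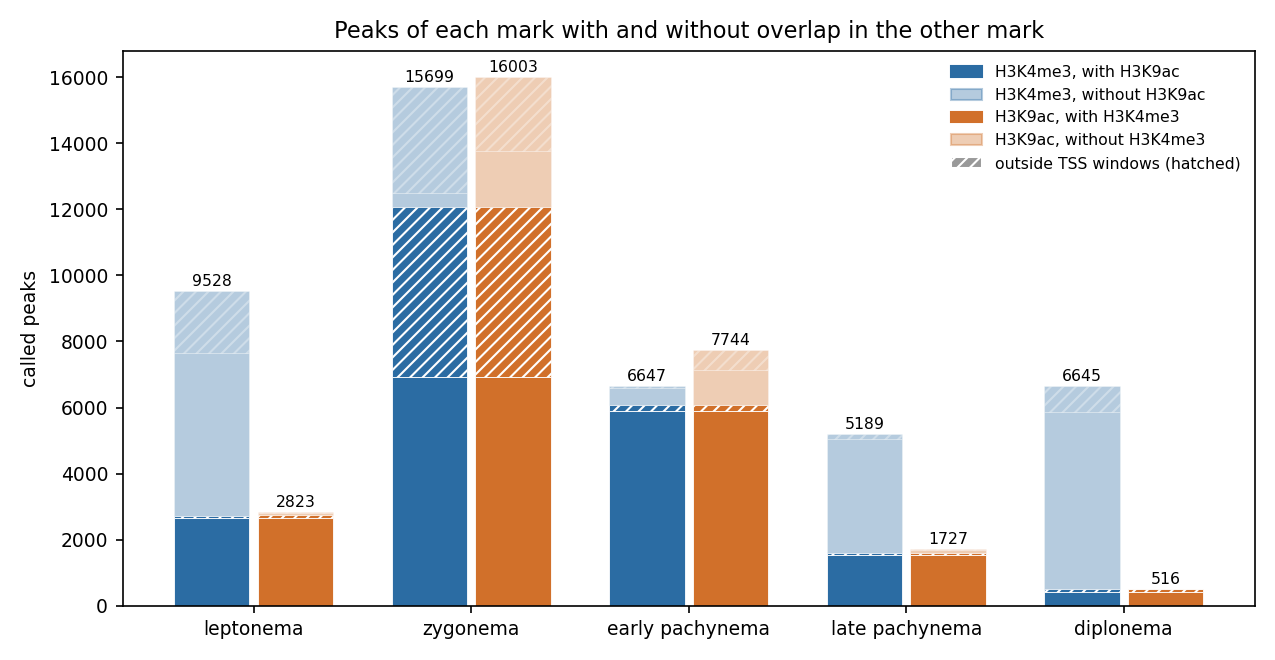
Called peaks (y axis) of H3K4me3 (blue) and H3K9ac (orange) at each stage (x axis), in full colour where they overlap a peak of the other mark and pale where they do not, hatched outside TSS windows, with the list total above each bar. The full-colour bars of both marks have nearly the same height at each stage, and the pale H3K4me3 part is largest at leptonema (6808 peaks), diplonema (6148) and zygonema (3630).

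The shares depended on list length. When both lists of a pair were cut to their widest peaks, as many as the shorter list holds, 50.6% of the H3K9ac peaks overlapped H3K4me3 at leptonema, 52.1% in late pachynema and 27.5% at diplonema, and 49.7%, 51.5% and 26.2% of the H3K4me3 peaks overlapped H3K9ac. At zygonema and early pachynema, whose lists were of like length, the same setting gave 76.4% and 82.8% of the H3K9ac peaks. With the H3K4me3 list of experiment 2 instead of experiment 1, the share of H3K4me3 peaks with H3K9ac was 18.1% in late pachynema and 3.98% at diplonema.

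TSS windows, which reached 500 bp to each side of the transcript starts of GENCODE M21, held most peaks of both marks at every stage except for H3K4me3 at zygonema. Of the H3K9ac peaks, 95.9% lay at a TSS at leptonema, 54.1% at zygonema, 89.7% at early pachynema, 92.2% in late pachynema and 80.2% at diplonema. For H3K4me3 these shares were 79.5%, 46.8%, 96.2%, 95.8% and 87.2%. H3K9ac was thus more confined to TSSs than H3K4me3 at leptonema and zygonema, by 16.4 and 7.28 percentage points, and less so at early pachynema, late pachynema and diplonema, by differences of -6.48, -3.56 and -6.95 points. Over the 5 pairs, the mean difference was 1.34 points ± 10.2 (SD, n = 5 pairs), with p = 0.8125 (two-sided exact sign-flip permutation test, in which 5 pairs allow no p below 0.0625). With equal list sizes, or without leptonema or zygonema, this mean was negative.

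Outside TSSs, few H3K4me3 peaks had H3K9ac at leptonema and most had it at zygonema. At leptonema, 3.99% of 1956 H3K4me3 peaks outside TSSs overlapped H3K9ac (3.16 to 4.95), against 34.9% of the 7572 at TSSs (33.8 to 35.98). At zygonema, 61.6% of 8352 H3K4me3 peaks outside TSSs overlapped H3K9ac (60.5 to 62.6) and 94.2% of the 7347 at TSSs (93.7 to 94.8). In the other direction, 81.2% of 117 leptonema H3K9ac peaks outside TSSs overlapped H3K4me3 (72.9 to 87.8), and 69.7% of 7349 at zygonema (68.6 to 70.7). Early pachynema had only 251 H3K4me3 and 794 H3K9ac peaks outside TSSs. Of these H3K9ac peaks, 290 (36.5%) also had H3K9ac at zygonema. At early pachynema, 72.9% of the H3K4me3 peaks outside TSSs had H3K9ac, whereas 21.8% of the H3K9ac peaks there had H3K4me3 (18.96 to 24.8), beside 84.8% of the H3K9ac peaks at TSSs (84.0 to 85.7).

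The places of the peaks with only 1 mark differed between the marks and stages. Of the 3630 zygonema H3K4me3 peaks without H3K9ac, 11.7% lay at a TSS (10.6 to 12.7), 36.5% in introns away from TSSs and 45.0% between genes. Of the 3945 zygonema H3K9ac peaks without H3K4me3, 43.5% lay at a TSS (41.9 to 45.0). In early pachynema, 62.9% of the 1676 H3K9ac peaks without H3K4me3 lay at a TSS (60.6 to 65.3) and 20.5% between genes. At late pachynema and diplonema, the 3588 and 6148 H3K4me3 peaks without H3K9ac were promoter peaks for the most part, with 96.0% and 87.3% at a TSS. Peaks without the other mark had the smaller median width in 9 of the 10 lists. At zygonema, the median width of H3K9ac was 427 bp without H3K4me3 and 924 bp with it. The exception was the 12 diplonema H3K9ac peaks without H3K4me3, at 331 bp against 309 bp. Wider peaks reach an overlap of 1 bp more easily, and the part of this in these widths was not tested.

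Lists of experiment 2 were searched for these peaks with only 1 mark. Among H3K9ac peaks without H3K4me3 in experiment 1, 62.5% of 80 at leptonema overlapped an H3K4me3 peak of experiment 2 at the same stage, 11.8% at zygonema, 3.16% at early pachynema, 72.0% of 118 in late pachynema and 58.3% of 12 at diplonema. With the Abcam antibody to H3K4me2/3, whose lists are longer, the corresponding shares were 86.25%, 75.8%, 89.0%, 89.8% and 75.0%. Most zygonema and early pachynema H3K9ac peaks without an H3K4me3 peak in experiment 1 thus overlapped an H3K4me2/3 peak. Of the H3K4me3 peaks without H3K9ac, 87.6% recurred in experiment 2 at leptonema, 95.1% in late pachynema and 98.6% at diplonema, but 17.9% at zygonema and 26.0% at early pachynema, where 74.0% and 76.0% of the H3K4me3 peaks with H3K9ac did. With the Abcam antibody, 65.0% of the H3K4me3 peaks without H3K9ac overlapped a peak at zygonema and 93.5% at early pachynema. For those with H3K9ac the Abcam shares were 96.7% and 99.8%. At the other 3 stages, 97.6%, 99.4% and 99.1% of the H3K4me3 peaks without H3K9ac overlapped an Abcam peak. The experiment 2 H3K4me3 lists were longer than those of experiment 1 at leptonema (13095 against 9528 peaks), late pachynema (9124 against 5189) and diplonema (12071 against 6645). They were shorter at zygonema (11314 against 15699) and early pachynema (4883 against 6647). The part of list length in these shares was not tested.

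At TSSs, wider H3K4me3 peaks had H3K9ac more often at each of the 5 stages. The H3K4me3 peaks at TSSs were divided by width into 5 groups of equal size. The share with H3K9ac went from 10.7% in the narrowest to 63.1% in the widest group at leptonema, from 84.3% to 99.1% at zygonema, from 76.8% to 99.6% at early pachynema, from 7.94% to 60.7% in late pachynema and from 0.690% to 20.4% at diplonema. Outside TSSs at zygonema it went from 31.1% to 88.9%. Outside TSSs at leptonema, no such increase was seen, with 5.61% in the narrowest and 5.63% in the widest group and 2.56% to 3.32% between them. Outside TSSs at diplonema the narrowest group had the highest share, 17.0%, and the widest 8.82%. The lists give no peak height, so that width was the only measure of size. A wider peak also reaches an overlap of 1 bp more easily, and the part of this in the shares was not tested.

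**Figure D2:**
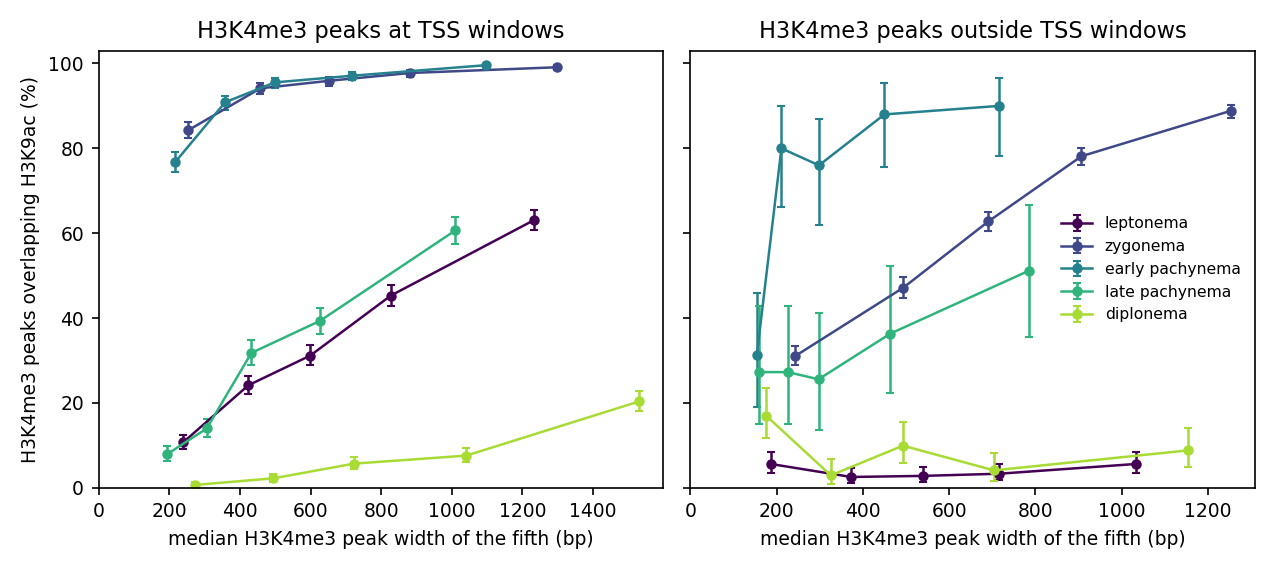
Share of H3K4me3 peaks that overlap H3K9ac (y axis, percent) against the median width of each of 5 equal groups of H3K4me3 peaks (x axis, bp), at TSS windows (left) and outside them (right), with 1 line per stage and bars for the exact binomial 95% interval. At TSSs all 5 lines go up with width, and outside TSSs the leptonema line stays between 2.56% and 5.63%.

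On average over the stages, H3K9ac lists shared more sites with the H3K4me3 lists of their own stage than with those of other stages. Of the merged sites of 2 lists, the share in both averaged 40.0% over the 5 pairs of the same stage and 27.6% over the 20 pairs of different stages. Of the 120 ways to match the 5 H3K9ac lists to the 5 H3K4me3 lists, the true one gave the highest mean share (difference 12.4 points). Its p was 0.00833 in a two-sided exact permutation test over these matchings, the smallest possible (0.0417 after Benjamini-Hochberg adjustment over 5 tests). The lists of the same stage shared the experiment as well, and with the H3K4me3 lists of experiment 2 the difference was 3.90 points (exact permutation test, p = 0.325). Without zygonema the difference was 5.86 points. Single stages departed from this order: the leptonema H3K9ac list shared 28.3% of sites with leptonema H3K4me3 but 37.3% with early pachynema H3K4me3, a list with fewer peaks outside TSSs, and 35.3% with late pachynema H3K4me3. The leptonema, late pachynema and diplonema H3K4me3 lists shared most sites with the early pachynema H3K9ac list (53.1%, 61.0% and 53.4%). The diplonema H3K9ac list shared 7.47% with its own stage and 8.23% with late pachynema.

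Where 1 peak of each mark overlapped, H3K9ac was the wider mark at zygonema and early pachynema and the narrower at the other stages. There were 2691 such pairs of peaks at leptonema, 11948 at zygonema, 6013 at early pachynema, 1590 in late pachynema and 490 at diplonema. The median log2 ratio of the H3K9ac width to the H3K4me3 width was -0.84 (quartiles -1.46 and -0.30), 0.30 (-0.15 and 0.79), 0.40 (0.01 and 0.88), -0.73 (-1.37 and -0.28) and -1.74 (-2.52 and -0.91) at these stages. The H3K9ac peak lay inside the H3K4me3 peak in 65.1% of pairs at leptonema, 15.8% at zygonema, 11.1% at early pachynema, 67.5% in late pachynema and 86.7% at diplonema. The mean of the 5 medians was -0.52 ± 0.89 (SD, n = 5 pairs), with p = 0.250 (two-sided exact sign-flip permutation test). The order of the widths moved with the order of list length: H3K9ac was wider at the 2 stages at which its list was the longer of the pair, and the part of list length in the widths was not tested.

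The widths of the whole lists went the same way. The median H3K4me3 peak was 586 bp wide at leptonema, 673 bp at zygonema, 491 bp at early pachynema, 426 bp in late pachynema and 689 bp at diplonema, and the median H3K9ac peak 417 bp, 787 bp, 677 bp, 336 bp and 309 bp. The mean log2 ratio of these medians was -0.26 ± 0.64 (SD, n = 5 pairs, p = 0.4375, two-sided exact sign-flip permutation test). At zygonema the ratio was not the same at TSSs and elsewhere. At TSSs, H3K9ac was the wider in 80.6% of 6924 pairs (median log2 ratio 0.55, with 1030 bp against 672 bp), whereas outside TSSs it was the wider in 48.2% of 5024 pairs (median log2 ratio -0.03, with 788 bp against 834 bp).

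**Figure D3:**
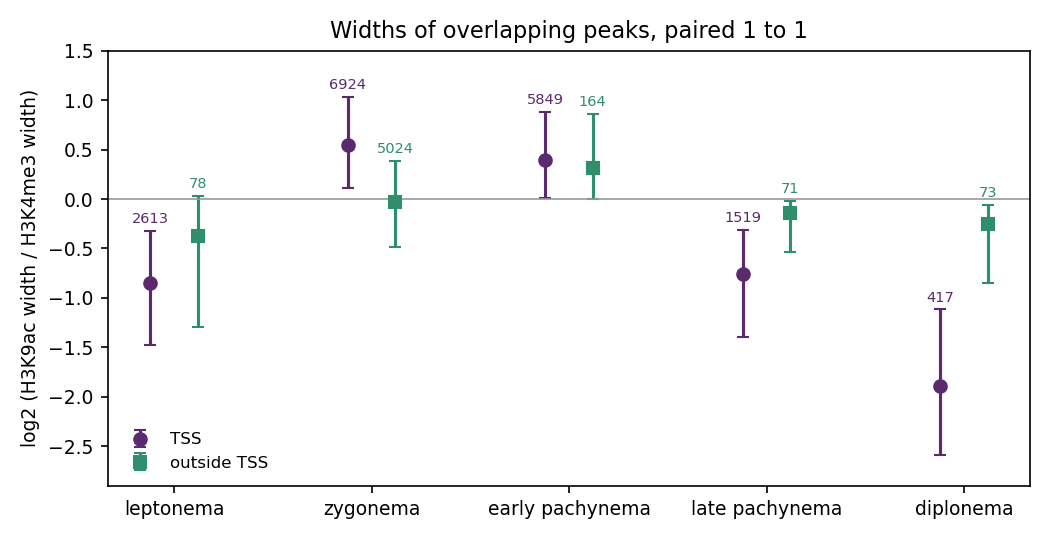
Median log2 ratio of H3K9ac width to H3K4me3 width (y axis) in overlapping peaks paired 1 to 1, at TSSs (circles) and outside TSSs (squares), by stage (x axis), with bars for the quartiles and the number of pairs above. At zygonema the TSS pairs sit at 0.55 and the other pairs at -0.03, and at diplonema they sit at -1.90 and -0.25.

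A small set of sites carried both marks throughout. Of 11638 merged sites outside TSSs, 15 had a peak of both marks at all 5 stages, and they made up 14.7% of the diplonema H3K9ac peaks outside TSSs, 12.8% of those at leptonema and 11.2% of those in late pachynema. Their median share of soft-masked (repeat) bases in the reference was 98.5%, with a range of 0 to 100%. The widest, chr17:13589879-13591557 in an intron of 2700054A10Rik, was 1679 bp long and was the widest two-mark site outside TSSs at both late pachynema and diplonema. Without these 15 sites, no overlap share left its interval. The median log2 width ratios of pairs outside TSSs were then -0.67, -0.03, 0.46, -0.21 and -0.28 from leptonema to diplonema. With the sites they were -0.37, -0.03, 0.31, -0.15 and -0.25. In the central 300 bp, diplonema H3K4me3 peaks outside TSSs had a median of 60.3% soft-masked bases with H3K9ac and 9.33% without it.

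In pairs at TSSs, the midpoints of the marks lay a median of 111.5 bp apart at leptonema, 116 bp at zygonema, 99 bp at early pachynema, 92.5 bp in late pachynema and 196.5 bp at diplonema, in either direction. In pairs at TSSs of 1 strand, the median position of the H3K9ac midpoint relative to the H3K4me3 midpoint, positive in the direction of transcription, was 10.5 bp at leptonema (n = 1754 pairs of peaks), 1.5 bp at zygonema (n = 5096), 7.5 bp at early pachynema (n = 4196), -14.0 bp in late pachynema (n = 1059) and -27.5 bp at diplonema (n = 281). The mean of these medians was -4.40 bp ± 16.0 (SD, n = 5 pairs), with p = 0.625 (two-sided exact sign-flip permutation test). It was 21.15 bp with the H3K4me3 lists of experiment 2 (exact p = 0.0625, the smallest possible) and 1.375 bp without diplonema, so that no direction is given. The H3K9ac edge lay a median of 124 bp beyond the H3K4me3 edge upstream and 149 bp beyond it downstream at zygonema, but 19 bp and 86 bp at early pachynema.

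Coverage by peaks was followed around 9705 TSSs of protein-coding genes whose starts lie within 500 bp of each other and that have no start on the opposite strand within 2000 bp. Among those with both marks in the TSS window, both marks covered the largest share of TSSs 200 bp downstream of the start at leptonema (97.2% for H3K4me3 and 79.3% for H3K9ac of 900 TSSs) and at early pachynema (92.8% and 92.2% of 2240). The maxima lay 150 bp downstream for H3K4me3 and 200 bp for H3K9ac at zygonema, 200 bp for both in late pachynema (92.2% and 69.5% of 498 TSSs), and 250 bp and 350 bp at diplonema. At the start itself, H3K9ac covered 76.8% and H3K4me3 59.5% of the 2512 TSSs at zygonema. At 500 bp upstream these shares were 28.8% and 8.84%. At diplonema the order was the opposite, with 19.8% for H3K9ac and 71.4% for H3K4me3 at the start of 126 TSSs.

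**Figure D4:**
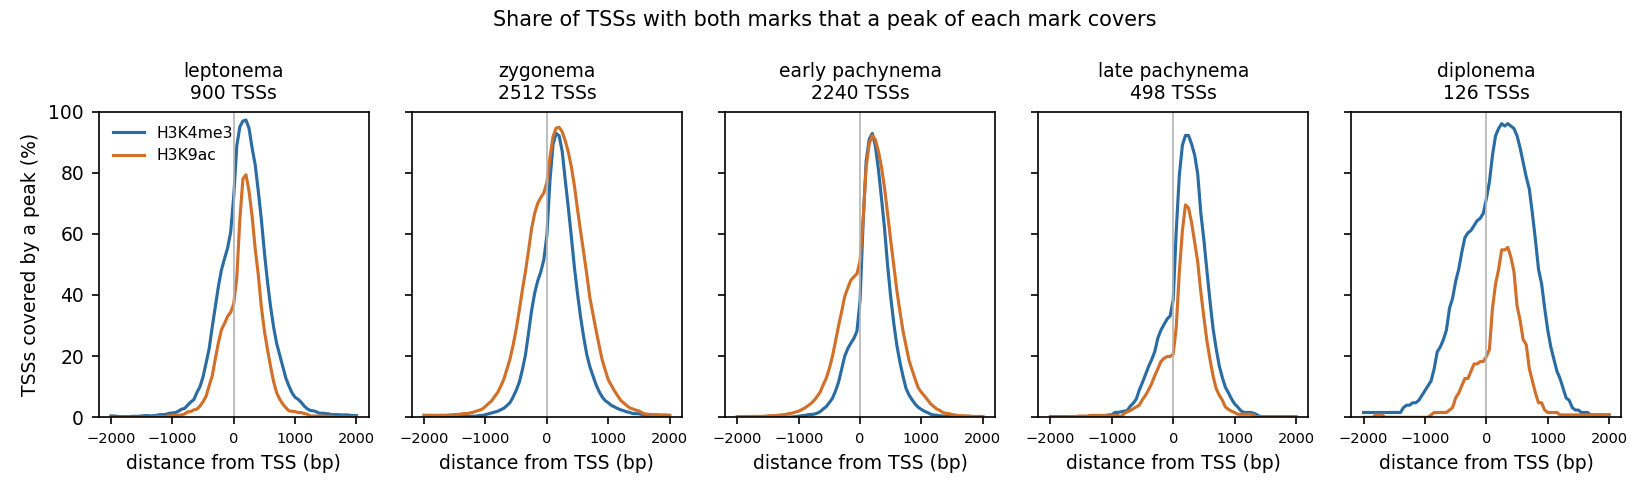
Share of TSSs covered by a called peak (y axis, percent) of H3K4me3 (blue) and H3K9ac (orange) against the distance from the TSS (x axis, bp, positive downstream), among TSSs with both marks, 1 panel per stage with its number of TSSs. Both curves are highest downstream of the start, and the H3K9ac curve is the wider at zygonema and early pachynema and the lower and narrower at leptonema, late pachynema and diplonema.

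At the level of genes, 20807 protein-coding genes on chromosomes 1 to 19 were counted by the marks at any of their TSSs. Both marks were called at 3066 genes at leptonema (14.7% of all), 7385 at zygonema (35.5%), 6588 at early pachynema (31.7%), 1696 in late pachynema (8.15%) and 432 at diplonema (2.08%). H3K4me3 without H3K9ac was called at 5094, 291, 478, 3872 and 5663 genes (24.5%, 1.4%, 2.3%, 18.6% and 27.2%), and H3K9ac without H3K4me3 at 42, 1337, 846, 43 and 0 genes (0.202%, 6.43%, 4.07%, 0.207% and 0%). H3K4me3 with or without H3K9ac was called at 39.2%, 36.9%, 34%, 26.8% and 29.3% of the genes, and H3K9ac with or without H3K4me3 at 14.9%, 41.9%, 35.7%, 8.36% and 2.08%. Of the 5094 leptonema genes with H3K4me3 only, 4003 (78.6%) had both marks at zygonema. Of the 6588 early pachynema genes with both marks, 3587 (54.4%) had H3K4me3 only in late pachynema, 1301 (19.7%) neither mark and 1670 (25.3%) both. With equal list sizes, 1640 genes at leptonema, 987 in late pachynema and 127 at diplonema had both marks. Genes with overlapping or shared windows share their peaks.

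Genes of DSB formation were called with H3K4me3 alone, with both marks or with neither at leptonema. Of 11 such genes, 3 had both marks and 6 H3K4me3 only at leptonema, 7 had both at zygonema, 6 at early pachynema, 2 in late pachynema and 0 at diplonema. Over all genes, the shares with both marks were 14.7%, 35.5%, 31.7%, 8.15% and 2.08%, and the share with H3K4me3 only at leptonema was 24.5%. The 4 genes that went from H3K4me3 alone at leptonema to both marks at zygonema were Prdm9, Spo11, Gm960 and Hormad1. Ankrd31, Zcwpw1 and Hells had both marks already at leptonema. Prdm9, the methyltransferase that sets the hotspots, had an H3K4me3 peak of 1049 bp without H3K9ac at leptonema. Both marks were called at zygonema (916 bp of H3K4me3 and 610 bp of H3K9ac) and early pachynema (692 bp and 531 bp). In late pachynema and diplonema it had H3K4me3 alone, with peaks of 196 bp and 167 bp. The H3K4me3 peaks of experiment 2 at these stages were 496 bp and 489 bp wide. Spo11, which makes the breaks, had H3K4me3 at all 5 stages and H3K9ac at zygonema (279 bp), early pachynema (577 bp) and late pachynema (159 bp). Hormad1, an axis protein needed for break formation, had the same pattern, with H3K9ac peaks of 934 bp, 1326 bp and 342 bp. Mei4 and Mei1, both required for the breaks, had H3K4me3 at leptonema only (684 bp and 297 bp) and no H3K9ac at any stage. In experiment 2, Mei1 also had an H3K4me3 peak of 159 bp in late pachynema. Zcwpw1, a reader of H3K4me3, had both marks at leptonema (3127 bp and 721 bp) and zygonema (1027 bp and 2877 bp) and neither later. The H3K4me3 lists of experiment 2 had peaks there in late pachynema (257 bp) and at diplonema (160 bp).

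In strand exchange, crossover and axis genes, both marks were called at fewer members in late pachynema than at early pachynema, and over all genes the share also went from 31.7% to 8.15%. Of 11 strand exchange genes, 6, 9, 7, 1 and 0 had both marks from leptonema to diplonema, of 11 crossover genes 3, 7, 7, 1 and 0, and of 13 axis and synaptonemal complex genes 7, 11, 10, 1 and 1. With equal list sizes, the leptonema counts were 1 for strand exchange, 0 for crossover and 5 for axis genes. Dmc1, the meiotic recombinase, had H3K4me3 alone at leptonema (934 bp), both marks at zygonema (622 bp of H3K4me3 and 1126 bp of H3K9ac) and no peak from early pachynema on. Sycp1, the transverse filament protein of the synaptonemal complex, had both marks at the first 3 stages, with H3K9ac peaks of 704 bp, 1333 bp and 1096 bp. It had neither at the last 2 in experiment 1, whereas the H3K4me3 lists of experiment 2 had peaks of 1465 bp and 1686 bp there. Sycp3, an axial element protein used in the sort, had H3K4me3 at all 5 stages and H3K9ac at all but leptonema, with widths of 914 bp, 1395 bp, 961 bp and 657 bp from zygonema to diplonema. Stra8, the meiotic entry factor used to sort leptotene nuclei, had H3K4me3 at leptonema (586 bp), no H3K9ac and no later peak. Hist1h1t, which encodes the H1t used in the sort, had a 258 bp H3K4me3 peak at leptonema and no other peak in experiment 1. In experiment 2, an H3K4me3 peak was called there at zygonema (747 bp) and not at leptonema. The gene lies in a cluster of similar histone genes in which reads can be split, and the effect of this was not tested.

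Regulators of the pachytene programme and piRNA genes held both marks at most members through late pachynema. Of 12 genes, 4 had both marks at leptonema, 8 at zygonema, 12 at early pachynema, 10 in late pachynema and 3 at diplonema, beside 8.15% of all genes in late pachynema and 2.08% at diplonema. With equal list sizes these counts were 1, 8, 11, 7 and 0. Mybl1 (A-MYB), a transcription factor of this programme, had H3K4me3 at all 5 stages and H3K9ac at zygonema (1353 bp), early pachynema (1353 bp) and late pachynema (224 bp). Mov10l1, a helicase of piRNA biogenesis, and Ddx4, a germ cell RNA helicase, had both marks at all 5 stages, and so did Cdc20, an activator of the anaphase-promoting complex. For Mov10l1, the H3K9ac peaks were 240 bp, 1700 bp, 1863 bp, 1009 bp and 293 bp wide, and the H3K4me3 peaks 753 bp, 1134 bp, 1566 bp, 1364 bp and 1429 bp. In all, 177 genes (0.851% of all protein-coding genes) had both marks at all 5 stages.

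Both marks were called at early pachynema at some genes without earlier peaks. There were 95 protein-coding genes (0.457% of all) with neither mark at leptonema and zygonema and both at early pachynema, and 3 genes of the lists were among them. Of the 95, 26 (0.125% of all) also had both marks in late pachynema, and 6 of these had both at diplonema as well. Ccna1, the A-type cyclin of male meiosis, had 173 bp of H3K4me3 and 504 bp of H3K9ac at early pachynema, 394 bp and 169 bp in late pachynema and 1385 bp of H3K4me3 alone at diplonema. Tdrd6, a Tudor domain protein of the chromatoid body, had 605 bp and 467 bp, then 590 bp and 363 bp, then 1436 bp of H3K4me3 alone. Ldhc, the germ cell lactate dehydrogenase, had both marks at the last 3 stages, with 610 bp, 1161 bp and 1486 bp of H3K4me3 and 1444 bp, 558 bp and 608 bp of H3K9ac. It was 1 of the 6 genes (0.0288% of all) with this pattern.

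In experiment 1, 3 of the 14 spermiogenesis genes had H3K9ac alone at early pachynema and H3K4me3 alone at diplonema. Acr, the acrosomal protease, had H3K9ac alone at early pachynema (1228 bp), neither mark in late pachynema and H3K4me3 alone at diplonema (1494 bp). Pgk2, the sperm phosphoglycerate kinase, had 698 bp of H3K9ac and then 779 bp of H3K4me3 at the same stages, and Spata18 had 393 bp and then 662 bp. The H3K4me3 lists of experiment 2 had peaks at Acr (755 bp) and Pgk2 (853 bp) in late pachynema and at Spata18 (314 bp) at leptonema. Spaca1, an acrosomal membrane protein gene of the same list, had H3K4me3 alone at leptonema (618 bp) and both marks at zygonema (257 bp and 243 bp). The pattern of H3K9ac only at early pachynema and H3K4me3 only at diplonema was found at 301 protein-coding genes (1.45% of all), whatever their earlier state. Among its other members in the lists, Ccnb1 and Prr19 had H3K4me3 at leptonema and Plk1 had both marks at zygonema. The protamine and transition protein genes Prm1, Prm2, Tnp1 and Tnp2, which replace histones in spermatids, had neither mark at any stage, and 14 spermiogenesis genes together had both marks in 0, 1, 1, 1 and 1 cases.

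In cell division genes and in genes of the marks themselves, both marks were called most often at zygonema, in the H3K4 methylation list equally often at early pachynema. Zygonema was also the stage with the highest share over all genes, 35.5%, followed by early pachynema with 31.7%. Of 10 division genes, 2, 7, 4, 2 and 3 had both marks from leptonema to diplonema. Cdk1, the kinase of entry into division, and Ccnb2, a B-type cyclin, had H3K9ac at diplonema (496 bp and 153 bp) though not in late pachynema. So did 131 genes in all (0.63% of protein-coding genes), among them Brd2, a bromodomain protein, and Kdm1a, an H3K4 demethylase. Among 14 genes of H3K9 acetylation, 7, 13, 11, 2 and 1 had both marks, and among 14 genes of H3K4 methylation 8, 13, 13, 2 and 1. Kdm5b, an H3K4me3 demethylase, had both marks up to late pachynema, with an H3K9ac peak of 3746 bp at early pachynema. Of 14 spermatogonial and entry genes, 2 had both marks at leptonema, 3 at zygonema, 1 at early pachynema and none later, and Zbtb16, a spermatogonial transcription factor, had H3K9ac alone at zygonema (998 bp).

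The widest peaks named further genes. Among genes with both marks, the widest H3K9ac peaks were at Cdk13, a transcription kinase, at leptonema (2372 bp, with 1873 bp of H3K4me3), Arid2, a chromatin remodeller subunit, at zygonema (4513 bp, with 1950 bp), Tgif1, a homeodomain repressor, at early pachynema (4927 bp, with 1019 bp) and Pabpc1, the poly(A) binding protein, in late pachynema (2262 bp, with 2021 bp) and diplonema (1314 bp, with 1190 bp). At diplonema Tgif1 had the widest H3K4me3 peak without H3K9ac, chr17:70849234-70854231 of 4998 bp, over the same stretch that its H3K9ac peak covered at early pachynema, chr17:70849173-70854099. Tgif1 was called with H3K9ac only at zygonema (1300 bp), both marks at early pachynema and H3K4me3 only in late pachynema (815 bp) and diplonema. The H3K4me3 list of experiment 2 had a peak of 505 bp there at early pachynema and of 5547 bp at diplonema.

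Several genes with a wide peak of only 1 mark had both marks at another stage. Arid2 had H3K4me3 alone at leptonema (2715 bp) and both marks at the 4 later stages. Ptma, which encodes prothymosin alpha, had 3491 bp of H3K4me3 alone at leptonema, both at zygonema (2466 bp and 1757 bp) and 2237 bp of H3K9ac alone at early pachynema. Among peaks at TSSs of protein-coding genes, the widest early pachynema H3K9ac peak without H3K4me3 was at Mroh4 (3668 bp), which had H3K9ac alone in late pachynema (1488 bp) and H3K4me3 alone at diplonema (1097 bp). In late pachynema the H3K4me3 list of experiment 2 had a peak of 1175 bp at Mroh4. Kmt2e, an MLL family gene, had 1946 bp of H3K4me3 without H3K9ac in late pachynema and both marks at the other 4 stages. At zygonema, Hist1h1a and Hist1h3a shared 1 H3K9ac peak of 3122 bp without H3K4me3 in experiment 1, in the histone gene cluster on chromosome 13. The zygonema H3K4me3 list of experiment 2 had a peak of 1542 bp at Hist1h3a and none at Hist1h1a. The cluster holds similar genes, and whether this affected the calls was not tested.

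Outside TSSs, the widest zygonema site with both marks was chr13:13665502-13669269 in an intron of Lyst, with 3768 bp of H3K9ac and 1582 bp of H3K4me3. The widest with H3K4me3 only, chr8:46998450-47008092 of 9643 bp, overlaps an exon and the genes Enpp6 and Gm45600. This site holds the tandem repeat shown above, and the widest H3K4me3-only site at leptonema lay in it. It overlapped H3K4me3 peaks of experiment 2 and H3K4me2/3 peaks at both stages, and no H3K9ac peak was called there. The widest H3K9ac-only site at zygonema, chr9:66240945-66243455 of 2511 bp, overlaps an exon of Dapk2 and had an H3K4me2/3 peak but no H3K4me3 peak in experiment 2.

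At 14 hotspots in regions that the paper displays, H3K4me3 was called at leptonema and zygonema, and H3K9ac at zygonema. The hotspots were those annotated in the source data for display regions on chromosomes 1, 10 and 17, with 500 bp to each side of the midpoint. Of 14 such hotspots, 6 lay in introns, 3 overlapped exons and 5 lay between genes. At leptonema, 10 of them had H3K4me3 and 0 had H3K9ac, so that the exact binomial interval of the H3K9ac share ended at 23.2%. Over all leptonema H3K4me3 peaks outside TSSs, the share with H3K9ac was 3.99%, and a count of 0 in these hotspots cannot be told from that share. At zygonema 13 hotspots had both marks, of which 3 had had neither at leptonema, and no hotspot had either mark at the 3 later stages. Over all zygonema H3K4me3 peaks outside TSSs, 61.6% had H3K9ac, and 88.9% in the widest of 5 equal groups. The hotspots of display regions need not stand for all hotspots. The hotspot with neither mark at any stage was chr17:31344601-31345600 in an intron of Slc37a1. The leptonema H3K4me3 peaks at hotspots were narrower than at zygonema at all 10 hotspots with both; at the hotspot chr10:92680353-92681352 the widths were 1362 bp and 1997 bp.

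At the 13 zygonema hotspots the widths of both marks spanned much the same range. H3K4me3 ranged from 185 bp to 1997 bp with a median of 1186 bp, and H3K9ac from 436 bp to 2729 bp with a median of 1163 bp. H3K9ac was the wider at 9 and H3K4me3 at 4 of them, with a median log2 ratio of 0.17. Around chr10:92680353-92681352, whose central sequence is the first printed above, H3K9ac spanned chr10:92679303-92682031 and H3K4me3 chr10:92679572-92681568. In the hotspot chr1:176887063-176888062 in an intron of Sdccag8, a 718 bp H3K9ac peak enclosed a 185 bp H3K4me3 peak.

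The base composition of one-mark peaks differed between the marks. In the central 300 bp of peaks outside TSSs at zygonema, the median GC content was 45.0% (quartiles 40.0 and 49.3) for H3K9ac peaks with H3K4me3, 49.7% (44.7 and 54.3) for H3K9ac alone and 42.3% (37.7 and 47.0) for H3K4me3 alone. The median ratio of observed to expected CG dinucleotides was 0.171, 0.351 and 0.146. At TSSs the order was another: 67.3% GC for H3K9ac peaks with H3K4me3, 61.0% for H3K9ac alone and 64.3% for H3K4me3 alone at zygonema, and 68.0%, 61.0% and 69.0% at early pachynema. These are descriptions without a test, and the quartiles of the groups overlap.

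The 8-base word that exceeded its flanks by most at H3K4me3 peak centres was GCAGCACC, or GGTGCTGC on the other strand. It was the first of 5 words picked on experiment 2 zygonema peaks outside TSSs on even-numbered chromosomes, followed by GCAGCAGC, AGCTGCTG, CTGCTGCC and TGCTGCCA, which overlap one another in sequence. On odd-numbered chromosomes, the word lay in the central 200 bp of 4.29% of the 2704 zygonema H3K4me3 peaks outside TSSs with H3K9ac (3.56 to 5.12), against 0.407% in a flank 600 bp to 800 bp to the right of the midpoint. For the 1650 H3K4me3 peaks without H3K9ac, these shares were 2.48% (1.79 to 3.36) and 0.242%. For the 1206 H3K9ac peaks without H3K4me3, they were 1.82% (1.15 to 2.75) and 0.746% (0.342 to 1.41), with overlapping intervals. For the 2691 H3K9ac peaks with H3K4me3, centred on H3K9ac as well, they were 3.31% (2.66 to 4.05) and 0.595%. The experiment 2 peaks used for the choice overlapped 74.0% of all zygonema H3K4me3 peaks with H3K9ac and 17.9% of those without. The part of this in the shares was not tested. Of 2632 overlapping pairs, 159 had exactly 1 such word in the shared stretch. In these, it lay a median of 81.5 bp from the H3K4me3 midpoint and 100.0 bp from the H3K9ac midpoint, and nearer to the H3K4me3 midpoint in 94. The word was picked at centres of H3K4me3 peaks, so that these distances cannot show a preference for either mark. Only letters were matched, and no factor was assayed.

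Promoters of genes with both marks were richer in CG. RefSeq promoters of GRCm38.p6, from 250 bases before to 50 after the start, were matched by symbol to 15704 of the 20807 genes. The median number of CG dinucleotides was 15.0 over all of these, 24.0 for genes with both marks at zygonema, 20.0 with H3K4me3 only, 17.0 with H3K9ac only and 5.0 with neither. At early pachynema the values were 24.0, 22.0, 18.0 and 6.0. On either strand, GGGCGG was found in 48.6% of all promoters and in 69.4%, 64.4%, 66.004% and 31.8% of these 4 zygonema classes, and CCAAT in 38.4% of all and in 38.8%, 36.5%, 42.7% and 37.6%. TGACGTCA was found in 2.48% of all and in 4.30%, 2.25%, 2.49% and 1.23%, and TAACNG in 20.4% of all and in 18.7%, 15.3%, 20.1% and 21.8%. These shares describe the letters in the window only.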

How the data were processed

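The peaks of H3K4me3 and H3K9ac came from chromatin immunoprecipitation and sequencing of sorted mouse spermatocyte nuclei. The deposited lists hold a start and an end for each peak in mm10, with no score, height or read count. The authors aligned reads with BWA 0.7.12 and called peaks per library with MACS2 2.1.2 in broad mode, against input of the same stage for H3K4me3. For H3K9ac the control is not given in the sources used here. A spike-in was used for H3K4me3 only. No per-sample column was left unused.

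Lists were grouped by title, and the members, gene lists and tests were chosen with earlier results of these data known. The stage, not a replicate number, pairs the lists. Overlaps of at least 1 bp were counted in Python 3.11.15 (numpy 2.4.6, pandas 2.3.3) and checked with bedtools 2.31.1. TSSs and genes on chromosomes 1 to 19 came from GENCODE M21, and promoters from RefSeq (GRCm38.p6). Exact binomial intervals and exact permutation tests over libraries used scipy 1.17.1, and sequences were read with pysam 0.24.0. The procedures were tested on simulated data. Named genes were the members of lists by function and, for each stage, up to 3 genes with the widest peak of each class, from which those described were taken. The alternatives were an overlap of at least 50% of the shorter peak, equal list sizes, wider peaks, other TSS windows, the H3K4me3 lists of experiment 2, each stage left out, no pairing and, chosen after seeing the data, omission of 15 sites with both marks at all stages and equal list sizes for the gene lists. Figures were drawn with matplotlib 3.10.9.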

Additional observations from a re-analysis of the deposited data

Results flagged for a closer look

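The share of peaks at TSSs differed in sign between stages. H3K9ac minus H3K4me3 was 16.4 percentage points at leptonema and 7.28 at zygonema, but -6.48 at early pachynema, -3.56 in late pachynema and -6.95 at diplonema. With 1 library per mark and stage, the difference between stages was not tested.

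The width ratio of overlapping peaks did so as well. The median log2 ratio of H3K9ac to H3K4me3 width was -0.84 at leptonema, 0.30 at zygonema, 0.40 at early pachynema, -0.73 in late pachynema and -1.74 at diplonema, and this difference between stages was not tested either.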

How the results depend on the processing

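Values below are in the order leptonema, zygonema, early and late pachynema, then diplonema unless stages are named. The share of H3K9ac peaks on H3K4me3 was 94.2%, 72.9%, 76.5% and 90.2% at the first 4 stages with an overlap of at least 50% of the shorter peak, 50.6%, 76.4%, 82.8%, 52.1% and 27.5% with equal list sizes, 83.1%, 65.1%, 66.7%, 83.1% and 83.7% with the wider peaks of each list, and 98.2%, 58.3%, 60.1%, 96.6% and 94.96% with the H3K4me3 lists of experiment 2. The share of H3K4me3 peaks with H3K9ac was 74.4% at zygonema and 89.2% at early pachynema with the stricter overlap, and with equal list sizes 49.7% at leptonema, 82.9% at early pachynema, 51.5% in late pachynema and 26.2% at diplonema. It was 24.6%, 66.4%, 77.6%, 27.5% and 6.41% with wider peaks, and 20.9%, 82.6%, 95.8%, 18.1% and 3.98% with experiment 2. Equal sizes keep fewer peaks, and the cause of the other changes was not tested.

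The excess of overlap at the same stage was 3.90 points with experiment 2 (exact permutation test, p = 0.325) and ranged from 5.86 to 16.7 points with a stage left out. The mean difference in TSS share was -1.42 points with equal list sizes, -2.43 without leptonema and -0.149 without zygonema, with a range of -2.43 to 3.41 over single stages left out. The midpoint difference was 21.15 bp with experiment 2 and 1.375 bp without diplonema, and ranged from -8.125 bp to 1.375 bp over single stages left out. Genes with both marks numbered 1640 at leptonema, 987 in late pachynema and 127 at diplonema with equal list sizes. A share was taken as moved when it left its 95% interval, and a count when it changed by over 1.5 times. By these limits and the tests, 38 values under the alternatives moved, 5 changed sign, 1 lost its call and 72 did none of these. Without the pairing by stage, the TSS share difference of 1.34 points had p = 0.857 and the log2 ratio of median widths, -0.26, had p = 0.381 (exact permutation tests), so that the block changed no call.

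Read depth is unknown, a missing peak is not a missing mark, and each list is 1 library.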
